A study of Mus musculus with 10 samples.

Results

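Matrix metalloproteinases cut the proteins of the extracellular matrix, and tissue inhibitors of metalloproteinases (TIMPs) bind and block them. The genes described here are 7 metalloproteinases, *Mmp2*, *Mmp3*, *Mmp7*, *Mmp9*, *Mmp10*, *Mmp13* and *Mmp14*, and 3 inhibitors, *Timp1*, *Timp2* and *Timp3*. They were taken by symbol from a table of 56691 mouse genes, in which all 10 were found. RNA was sequenced from the colon of 8-week-old male C57/BL6 mice in 2 groups. Mice of the DSS group (n = 5, numbered DSS-1 to DSS-5) drank 3% dextran sulfate sodium, which injures the colon lining, for 7 days. Mice of the ceAF group (n = 5, ceAF-1 to ceAF-5) drank the same and were then given chick early amniotic fluid, the fluid around early chick embryos, by gavage at 15 mL/kg for 10 days. In the design drawing of the paper, the DSS group is given pure water by gavage over the same time and all groups are sampled together after it. The table holds no mice without DSS. That the 10 libraries are separate mice rests on their labels.

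In the inflamed colon, metalloproteinases come from several cell types. Stromelysins and collagenases are made by fibroblasts and other stromal cells, often under the cytokines IL-1 and TNF, while neutrophils carry gelatinase B and neutrophil collagenase in their granules. Most are secreted as inactive proenzymes, and their activity depends on activation and on the local balance with TIMPs, so RNA levels do not measure it.

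Between 16275884 and 19901549 reads were counted on genes per mouse in the DSS group (median 16426125) and between 14676471 and 18811795 in the ceAF group (median 16058782). Values per mouse are CPM, the reads of a gene relative to the size of its library, after scaling by TMM, a method that evens out differences in composition between libraries (TMM CPM). All 10 genes had enough counts to be tested among 16545 genes. A gene was called where its adjusted p-value (Benjamini-Hochberg, quasi-likelihood test of edgeR) was under 0.05 and its level differed by 1 or more on the log2 scale, and 0 of the 10 were, as were 0 of all genes tested (0%), or 3 of all genes without DSS-5. With no adjustment the count at p under 0.05 was again 0 of 10, against 1146 of all genes (6.93%). DESeq2 called 26 genes. It gave no p-value for *Mmp9*, and of the other 9 genes it called 0 and put 1, *Timp1*, under 0.05 with no adjustment, as it did 7.69% of all genes with a p-value. The groups overlapped in all 10 genes. Of all genes, 0.465% had the whole ceAF group below the whole DSS group and 0.774% had it above. The fitted log2 fold change was below 0 for 9 of the 10 genes, with a median of −0.49, whereas 48.6% of all genes were below 0, with a median of 0.01. With each mouse left out it was below 0 for 8 to 10 of the 10 genes, and the median lay between −0.73 and −0.14, the latter without DSS-1. DSS-1 was the highest of the 10 mice in 7 of the 10 genes, and ceAF-1 was the lowest in 9. The share of all genes with these mice at the ends is not given here. These counts therefore cannot be read as particular to the 10 genes. Without both DSS-1 and ceAF-1 the fold change was below 0 for 1 of the 7 metalloproteinases and for 3 of the 3 inhibitors. These mice were picked for their values, and leaving out the highest DSS mouse and the lowest ceAF mouse raises a fold change whatever the other mice show, so values without both describe the other 8 mice only.

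**Figure D1:**
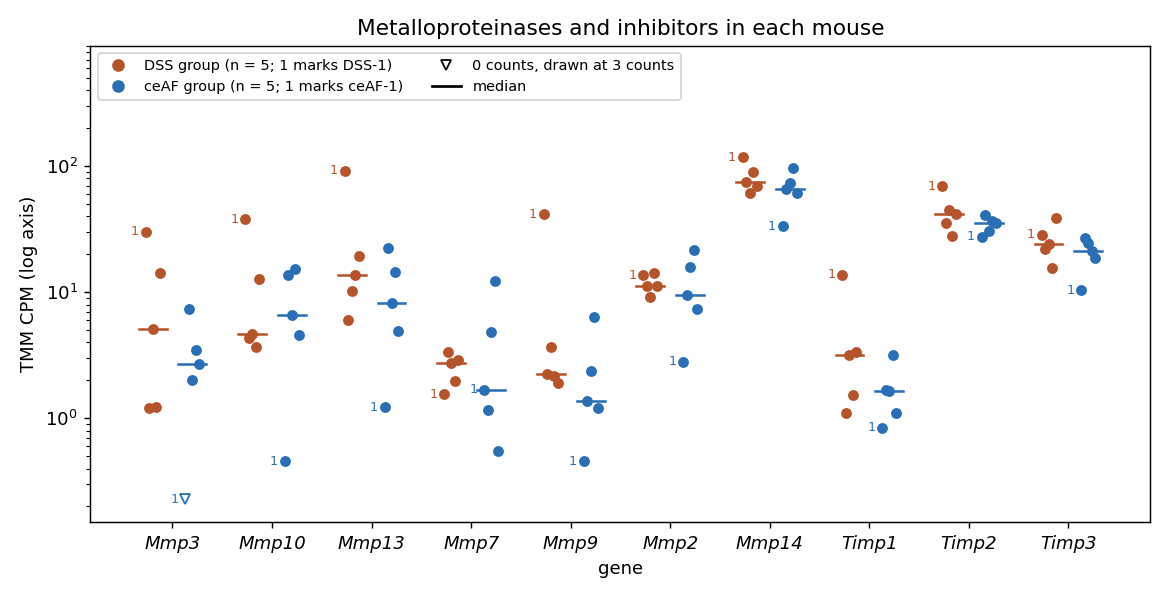
Level of each gene in each mouse, as TMM CPM on a log axis, with the DSS group in brown and the ceAF group in blue (n = 5 each), horizontal lines for group medians and the digit 1 beside DSS-1 and ceAF-1. The open triangle is a mouse with 0 counts, drawn at the level of 3 counts (0.229 CPM). DSS-1 and ceAF-1 lie at the ends of most genes.

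*Mmp3* (stromelysin 1), which cuts proteoglycans and fibronectin and activates other proenzymes, stands on the forward strand of chromosome 9 from 7445822 to 7455975 (ENSMUSG00000043613). Positions of genes are given as deposited, in a build that the sources used here do not name, on the forward strand unless stated. Its level was 30.3, 1.2, 5.09, 1.22 and 14.2 TMM CPM in DSS-1 to DSS-5 and 0, 7.42, 2.03, 3.46 and 2.69 in ceAF-1 to ceAF-5. DSS-1 and DSS-5 were high, DSS-2 and DSS-4 lay below 4 of the 5 ceAF mice, and the groups overlapped. The 0 counts of ceAF-1 allow a level of up to 0.229 CPM (3 counts, counting error only). Compared to the DSS group, the log2 fold change of *Mmp3* was −1.73 (standard error 1.01, Benjamini-Hochberg adjusted p = 0.758 by the quasi-likelihood test of edgeR). An exact two-sided permutation test over the mice gave p = 0.317. The fold change was −0.80 without DSS-1 and 0.20 in a fit of limma that gives each library a quality weight.

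*Mmp10* (stromelysin 2) is a close relative with similar substrates (ENSMUSG00000047562, chromosome 9, 7502353 to 7510241). It was measured at 37.8, 4.35, 4.67, 3.71 and 12.7 CPM in the 5 DSS mice in order, and at 0.458, 13.8, 6.58, 15.2 and 4.56 CPM in the 5 ceAF mice. DSS-1 was again the highest and ceAF-1 the lowest, while 3 of the ceAF mice lay above 3 of the DSS mice. The log2 fold change of *Mmp10* was −0.63 (standard error 0.82, exact permutation p = 0.595), and without DSS-1 its sign turned, to 0.36.

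*Mmp13* (collagenase 3), which cuts fibrillar collagen and is the main interstitial collagenase of the mouse, lies on the other side of *Mmp3* from *Mmp10* (ENSMUSG00000050578, chromosome 9, 7272514 to 7283331). Its values were 92.0, 6.0, 10.2, 13.8 and 19.3 CPM in DSS-1 to DSS-5 and 1.22, 22.3, 8.23, 14.6 and 4.95 CPM in ceAF-1 to ceAF-5. Apart from DSS-1 at the top and ceAF-1 at the bottom, the mice of both groups lay between 4.95 and 22.3 CPM. Means were 28.3 ± 36.0 CPM and 10.3 ± 8.32 CPM (SD, n = 5 each), and 12.3 ± 5.62 and 12.5 ± 7.64 CPM without DSS-1 and ceAF-1 (SD, n = 4 each). With all mice *Mmp13* had a log2 fold change of −1.46 (standard error 0.82, exact permutation p = 0.254), which was −0.27 without DSS-1 and 0.01 without both.

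*Mmp9* (gelatinase B), a protease of denatured collagen and basement membrane that neutrophils store, is on chromosome 2 from 164782700 to 164797770 (ENSMUSG00000017737). It stood at 41.7, 2.25, 3.71, 2.18 and 1.92 CPM in DSS-1 to DSS-5 and at 0.458, 1.37, 2.36, 6.38 and 1.21 CPM in ceAF-1 to ceAF-5. DSS-1 was 18.8-fold above the median of the other DSS mice, and those 4 fell between the lowest and the highest ceAF mouse. Its log2 fold change of −2.12 had a standard error of 1.01 and an unadjusted p of 0.0588 by edgeR. Without DSS-1 it was −0.08. The unadjusted p was under 0.05 in 4 of the 10 fits that left out 1 mouse, with fold changes of −2.35 without DSS-2, −2.38 without DSS-4, −2.36 without DSS-5 and −2.89 without ceAF-4.

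*Mmp2* (gelatinase A), made largely by stromal cells, and *Mmp14* (MT1-MMP), a membrane-bound protease that activates the *Mmp2* proenzyme, showed less spread. *Mmp2* (ENSMUSG00000031740, chromosome 8, 93553919 to 93580048) was at 13.6, 11.3, 9.10, 14.3 and 11.3 CPM in the DSS mice and at 2.82, 9.44, 15.8, 21.6 and 7.37 CPM in the ceAF mice. The DSS mice lay close together, between the lowest ceAF mouse, ceAF-1, and the highest, ceAF-4. *Mmp2* had a log2 fold change of −0.06 (standard error 0.42), which was above 0 without DSS-4 (0.01), ceAF-1 (0.18), ceAF-2 (0.02) or ceAF-5 (0.06).

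*Mmp14* (ENSMUSG00000000957, chromosome 14, 54669069 to 54682821) had 118, 75.2, 61.4, 90.0 and 70.0 CPM in the DSS mice and 33.3, 66.2, 73.2, 96.8 and 60.9 CPM in the ceAF mice. ceAF-1 was well below the DSS mice, ceAF-5 just below the lowest of them, and the other ceAF mice among them. For *Mmp14* the log2 fold change was −0.33 (standard error 0.26, exact permutation p = 0.270), −0.16 without either DSS-1 or ceAF-1, and 0.00 without both.

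*Mmp7* (matrilysin), a small protease that in the mouse gut is known from Paneth cells and from injured or tumour epithelium, had its extremes in other mice (ENSMUSG00000018623, chromosome 9, 7692091 to 7699586). It reached 1.56, 3.35, 2.75, 1.99 and 2.88 CPM in DSS-1 to DSS-5 and 1.68, 1.17, 4.88, 12.3 and 0.550 CPM in ceAF-1 to ceAF-5. DSS-1 was the lowest DSS mouse, and the ceAF group held both the 2 highest and the 2 lowest mice. It had between 10 and 206 counts per mouse. Its log2 fold change was 0.72 (standard error 0.69) and turned to −0.26 without ceAF-4.

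Of the inhibitors, *Timp1* is the one known to be induced by inflammatory cytokines (ENSMUSG00000001131, chromosome X, 20736405 to 20740974). It was at 13.8, 1.10, 3.17, 1.54 and 3.36 CPM in the DSS mice and at 0.839, 1.69, 1.65, 3.16 and 1.10 CPM in the ceAF mice. DSS-1 stood 5.86-fold above the median of the other DSS mice, DSS-2 lay among the lowest mice, and the groups overlapped. *Timp1* had a log2 fold change of −1.43 (standard error 0.66, unadjusted p of 0.0529 by edgeR, exact permutation p = 0.230). It was −0.43 without DSS-1, and the unadjusted p was under 0.05 without DSS-2 (−1.67), DSS-4 (−1.65) or ceAF-4 (−1.77). *Timp1* lies within *Syn1*, a gene on the other strand with 21 to 89 counts per mouse. Only whole spans of genes were compared, so whether *Timp1* and *Syn1* share exonic bases is not known. Whether the counting used strand is not given in the sources used here. Reads from any exonic bases that both share therefore cannot be told apart.

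*Timp2* (ENSMUSG00000017466, chromosome 11, reverse strand, 118191895 to 118246566), which also helps MT1-MMP to activate gelatinase A, spanned 2.52-fold between its lowest and highest mouse, the smallest span of the 10 genes. It was at 69.5, 35.4, 44.7, 28.0 and 41.5 CPM over the DSS mice and at 27.5, 41.1, 30.8, 36.9 and 35.3 CPM over the ceAF mice. DSS-1 stood above all others, which lay between 27.5 and 44.7 CPM. The log2 fold change was −0.35 (standard error 0.22), −0.12 without DSS-1, and −0.48 without DSS-4, where the unadjusted p was 0.0372 by edgeR.

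*Timp3* (ENSMUSG00000020044, chromosome 10, 86136236 to 86185370), which stays bound to the matrix, had 28.7, 22.1, 24.1, 15.7 and 38.7 CPM in the DSS mice and 10.4, 27.1, 24.8, 21.4 and 18.6 CPM in the ceAF mice. Its highest mouse was DSS-5 and its lowest ceAF-1, and the groups overlapped. The log2 fold change was −0.34 (standard error 0.28), and was −0.13 without DSS-5 and −0.17 without ceAF-1. With a quality weight for each library its sign turned, to 0.06. It lies within *Syn3*, which is on the other strand and had 13 to 31 counts. Further genes overlap the spans of *Mmp14* (1 with no symbol, 6 to 78 counts), *Mmp2* (*Gm45472*, 2 to 17), *Timp2* (*Cep295nl*, 0 to 5) and *Mmp7* (*AV064505*, 0 to 3). Counts of all these genes are uncertain where exonic bases are shared.

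Levels of different genes were compared per kilobase of exonic length, as TMM RPKM. *Mmp14* had the highest group median in both groups, at 12.6 RPKM for DSS and 11.1 RPKM for ceAF, followed by *Timp2* at 10.7 and 9.07 RPKM. *Mmp9* had the lowest, at 0.635 and 0.386 RPKM. The genes between them had medians of 2.58 to 5.18 RPKM for DSS and 1.5 to 3.82 RPKM for ceAF. In both groups the ranges of all neighbours in this order overlapped over the mice. Within single mice, the gene with the higher median was above its neighbour in 5 of 5 mice for *Mmp13* over *Timp1* in DSS and *Timp2* over *Mmp10* in ceAF, and in 1 to 4 of 5 for the other neighbours.

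The summed RPKM of the 7 metalloproteinases was 110.3, 25.2, 26.0, 29.8 and 40.8 in DSS-1 to DSS-5 and 8.86, 35.8, 30.2, 52.2 and 19.3 in ceAF-1 to ceAF-5. The 3 inhibitors together had 36.9, 13.0, 18.0, 10.8 and 19.2 RPKM in the DSS mice and 9.29, 15.8, 12.8, 15.7 and 12.6 RPKM in the ceAF mice. DSS-1 was the highest and ceAF-1 the lowest mouse in both sums. The quotient of proteases over inhibitors was 2.25 ± 0.626 for the DSS mice and 2.09 ± 0.903 for the ceAF mice (SD, n = 5 each), with ranges of 1.44 to 2.99 and 0.953 to 3.33. The difference in this quotient was smaller than the spread within either group, and no test was made of it. Its direction turned without DSS-1 and ceAF-1, to 2.06 ± 0.541 against 2.37 ± 0.741 (SD, n = 4 each).

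**Figure D2:**
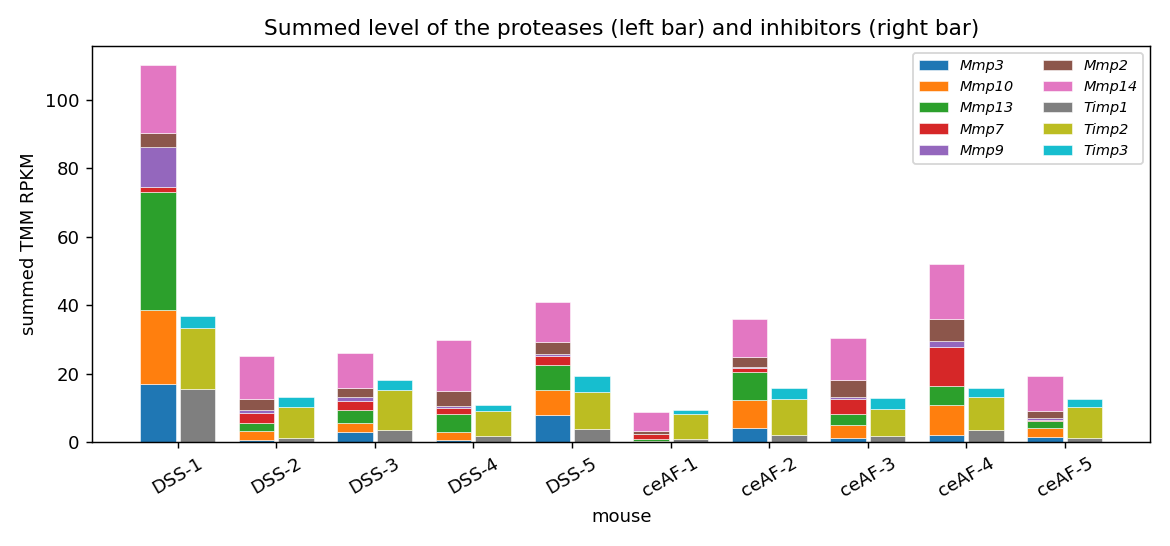
Summed level per mouse in TMM RPKM, with the 7 metalloproteinases in the left bar and the 3 inhibitors in the right bar of each mouse, coloured by gene. In DSS-1 *Mmp14* made up 18.0% of the protease sum, against 63.2% in ceAF-1, where the sum was lowest.

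*Mmp3*, *Mmp7*, *Mmp10* and *Mmp13* belong to a cluster of 10 metalloproteinase genes within 427073 bases of chromosome 9, from 7272514 to 7699586 as deposited. *Mmp12* (macrophage elastase), a gene between *Mmp13* and *Mmp3*, had 7.19, 1.80, 2.16, 2.69 and 2.46 CPM in the DSS mice and 0.153, 0.976, 1.21, 1.67 and 1.15 CPM in the ceAF mice. The highest ceAF mouse, ceAF-4, was below the lowest DSS mouse, DSS-2. *Mmp12* had a log2 fold change of −1.63 (standard error 0.52, Benjamini-Hochberg adjusted p = 0.656 by the quasi-likelihood test of edgeR). The exact permutation p was 0.00794, the smallest that 5 mice against 5 allow. With each mouse left out the fold change lay between −1.85 and −1.11, and without DSS-1 and ceAF-1 it was −0.86. With the mouse number as a block it was −1.48, and its unadjusted p by edgeR was not under 0.05. The gene had 2 to 124 counts per mouse.

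*Mmp8* (neutrophil collagenase) had 1306 counts in DSS-1, 120 in DSS-3 and 0 to 22 in the other mice, and too few mice passed the minimum count for it to be tested with the other genes. In CPM it stood at 75.7 in DSS-1, 7.18 in DSS-3 and at most 1.32 elsewhere. In a fit of all genes with any count, its log2 fold change was −5.26 (standard error 1.44, unadjusted p of 0.00258, Benjamini-Hochberg adjusted p = 0.69 by the quasi-likelihood test of edgeR). With each mouse left out of that fit, an alternative added after the data were seen, it was −2.38 without DSS-1 and −6.14 to −5.01 without any other mouse. *Mmp1a*, *Mmp1b*, *Mmp20* and *Mmp27* had 1, 0, 9 and 20 counts over all mice. DSS-1 was the highest mouse in *Mmp13*, *Mmp12*, *Mmp3*, *Mmp10* and *Mmp8*, which lie in a row apart from *Mmp1a* and *Mmp1b*, whereas *Mmp7* at the far end was highest in ceAF-4.

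**Figure D3:**
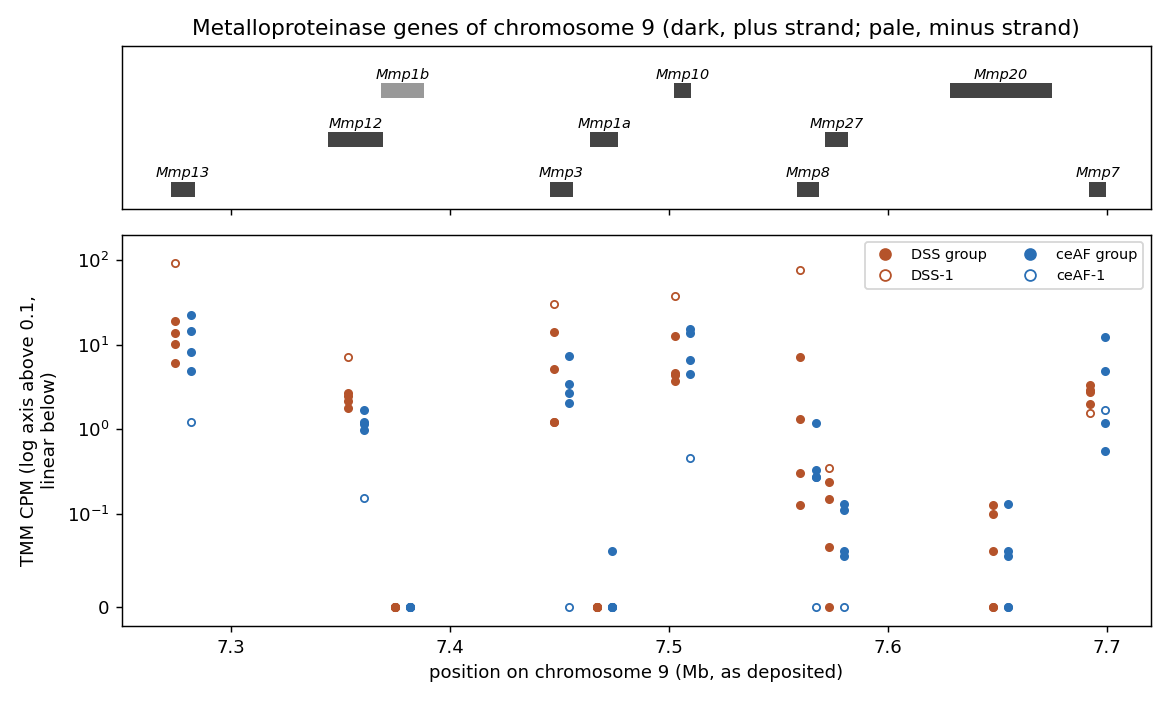
The 10 metalloproteinase genes of the cluster drawn to scale along chromosome 9 (Mb, upper panel) and the TMM CPM of each gene in each mouse below its position (log axis above 0.1 CPM), with DSS-1 and ceAF-1 as open circles. DSS-1 tops *Mmp13*, *Mmp12*, *Mmp3*, *Mmp10* and *Mmp8* but not *Mmp7*.

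Correlations of log2 CPM over the 10 mice were computed for 6 pairs of known partners or neighbours, each with a two-sided permutation test (100000 resamples) and Benjamini-Hochberg adjustment over the 6. *Mmp3* and *Mmp10* had a Pearson r of 0.94 (p = 0.000360, adjusted 0.00216) and a Spearman rho of 0.85 (p = 0.00291, adjusted 0.00514). Without DSS-1 and ceAF-1, the mice farthest from the median of *Mmp3*, r was 0.70. For *Mmp3* and *Mmp13*, r was 0.90 (p = 0.000860, adjusted 0.00258) and rho 0.84 (p = 0.00343, adjusted 0.00514), with r at 0.63 without them.

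The protease *Mmp3* and the inhibitor *Timp1* also varied together, with r at 0.78 (p = 0.0160, adjusted 0.0241) and rho at 0.93 (p = 0.000310, adjusted 0.00186), and r at 0.68 without those mice. *Mmp2* and its activator *Mmp14* had an r of 0.90 (p = 0.00176, adjusted 0.00352) and a rho of 0.85 (p = 0.00319, adjusted 0.00514), and r was 0.68 without ceAF-1 and ceAF-4. *Mmp2* and *Timp2* showed no such relation, with r at 0.27 (p = 0.400, adjusted 0.400) and rho at 0.09 (p = 0.814, adjusted 0.814), and r at −0.10 without ceAF-1 and ceAF-4. For *Mmp9* and *Mmp3*, with DSS-1 and ceAF-1 farthest from the median of *Mmp9*, r was 0.70 with all mice (p = 0.0444, adjusted 0.0533; rho 0.41, p = 0.247, adjusted 0.297) and −0.07 without them. All r values pool both groups, and no relation was computed within a group.

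Because *Mmp3* varied with its neighbours *Mmp10* and *Mmp13*, promoters were read from RefSeq sequences of GRCm38.p6, in which 8 of the 10 genes matched by symbol. *Mmp2* and *Mmp9* did not. Varying with *Mmp3* was not particular to its neighbours. The genes outside the cluster *Cdk14* (r = 0.97), *Fgf10* (0.96) and *Mmp19* (0.95) were closer to it than *Mmp10* (0.94) or *Mmp13* (0.90). The motif TGANTCA, known as the core that AP-1 factors bind, was searched on both strands from 250 bases before the annotated start to 50 after it. It occurs in 4 of the 8 genes, *Mmp3*, *Mmp7*, *Mmp10* and *Mmp13*, and in 7.81% of the 32851 promoters of the same length. Counted in the same way, it is in 4 of the 9 promoters of these genes, since *Mmp7* has a further promoter in the table, which does not hold it. The letters AGGAAG, a core that ETS factors bind, and TATAAA, the TATA box, were searched in the same way. AGGAAG occurs in 7 of the 9 promoters and in 35.4% of all, and TATAAA in 4 of the 9 and in 13.6%. The 120 bases before the start are shown for the 4 genes that hold TGANTCA, on the forward strand, with its match in capitals.
*Mmp13*, chr9:7272394-7272513: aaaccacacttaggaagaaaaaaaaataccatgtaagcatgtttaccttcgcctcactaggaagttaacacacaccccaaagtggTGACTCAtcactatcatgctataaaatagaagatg
*Mmp3*, chr9:7445702-7445821: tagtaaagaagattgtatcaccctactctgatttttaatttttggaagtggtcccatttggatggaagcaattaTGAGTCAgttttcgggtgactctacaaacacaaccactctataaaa
*Mmp10*, chr9:7502222-7502341: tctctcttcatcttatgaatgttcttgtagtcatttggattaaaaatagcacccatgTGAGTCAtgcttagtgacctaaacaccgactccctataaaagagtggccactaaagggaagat
*Mmp7*, chr9:7691970-7692089: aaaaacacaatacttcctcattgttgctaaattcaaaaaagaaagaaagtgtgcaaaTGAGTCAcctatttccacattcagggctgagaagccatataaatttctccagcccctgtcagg
The match begins 35 bases before the start in *Mmp13*, 46 in *Mmp3*, and 63 in both *Mmp10* and *Mmp7*. *Mmp7*, whose highest and lowest mice were others than those of *Mmp3*, *Mmp10* and *Mmp13*, holds the motif as well. A match describes the sequence and shows neither a binding site nor a cause.

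Genes around the metalloproteinases were taken from 5 further lists. They are counted as lower or higher in ceAF where p was under 0.05 by edgeR with no adjustment, a limit that 3.67% of all genes passed as lower and 3.26% as higher; after adjustment 0 passed. These shares were 1.92% and 2.34% without DSS-1, 5.94% and 5.21% without ceAF-1, and 4.54% and 4.22% without both, so a count of a list in these fits is to be read against the share of the same fit. Of 17 other family genes, 9 were tested, 1 was lower (*Mmp12*) and 0 higher, with a median log2 fold change of −0.27. Of 19 tested genes for activation and control, 2 were lower, *Thbs1* and *Lcn2*, and 0 higher, with a median of −0.29. *Thbs1*, thrombospondin 1, was at 138 ± 129.9 CPM for DSS and 41.2 ± 14.5 CPM for ceAF (SD, n = 5 each), with DSS-1 (336 CPM) and DSS-5 (206 CPM) far above the others.

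*Lcn2* encodes lipocalin 2, whose human form is known to form a complex with gelatinase B. *Lcn2* was at 33.2 ± 58.1 and 4.96 ± 2.81 CPM (SD, n = 5 each). Its log2 fold change of −2.73 rested on DSS-1 (137 CPM) and was −0.56 without it, and it also missed the limit, with little change, without ceAF-1 (−2.47) or ceAF-3 (−2.57). That of *Thbs1* was −1.74, and between −1.96 and −1.10 with each mouse left out. It was −0.46 with a quality weight for each library, −1.22 with the mouse number as a block and −1.02 without DSS-1 and ceAF-1. *Thbs1* passed the limit in all 10 fits that left out 1 mouse. It did not pass with quality weights, with the block or without both mice.

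Of 17 tested ADAM and ADAMTS genes, relatives that shed membrane proteins or cut proteoglycans, 2 were lower, *Adam19* and *Adam8*, and 0 higher, with a median of −0.12. *Adam19* had 37.0, 31.3, 30.3, 28.9 and 20.2 CPM in the DSS mice and 9.92, 19.7, 18.0, 18.3 and 18.1 CPM in the ceAF mice. The groups did not overlap, although DSS-5 and ceAF-2 nearly met. *Adam19* had a log2 fold change of −0.81 (standard error 0.20, Benjamini-Hochberg adjusted p = 0.656 by the quasi-likelihood test of edgeR), and between −0.91 and −0.67 with each mouse left out. *Adam8*, a leukocyte protease, was at 83.3 CPM in DSS-1 and at 2.75 to 8.74 CPM in all others, and its log2 fold change of −2.26 was −0.36 without DSS-1.

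Of 23 tested matrix genes, the substrates, 23 had a fold change below 0 with a median of −0.27, but 2 were lower at the limit, *Spp1* (osteopontin, −2.46) and *Tnc* (tenascin C, −0.82). Without DSS-1 alone 0 were at the limit, *Spp1* at −0.85 and *Tnc* at −0.55, and *Tnc* passed it in 4 of the 10 fits that left out 1 mouse, with fold changes from −0.96 to −0.55 over the 10. Without DSS-1 and ceAF-1 the median was 0.09, 8 of the 23 were below 0 and 0 were at the limit. Of 19 tested inducers and transcription factors, 6 were lower and 1 higher, with a median of −0.32. The lower ones were *Il1b*, *Il1a*, *Rela*, *Junb*, *Egr1* and *Cebpb*, and the higher one *Etv4*, named after its values were seen (log2 fold change 0.87). *Etv4* passed the limit in 4 of the 10 fits that left out 1 mouse, and missed it in the other 6 at fold changes of 0.73 to 0.91, close to that of all mice. *Egr1* (−0.92) missed it without DSS-4, at −0.79. *Cebpb* (−1.31) passed it in 6 of these 10 fits, and was −0.34 without DSS-1 and −1.29 to −1.26 in the other 3 that missed it.

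*Il1b* encodes the cytokine IL-1β, a known inducer of stromelysins. It reached 597, 13.3, 61.1, 18.1 and 11.4 CPM in the DSS mice and 1.68, 20, 17.4, 9.01 and 2.53 CPM in the ceAF mice. DSS-1 and DSS-3 were high, and the other DSS mice lay among the ceAF mice. Its log2 fold change was −3.79 (standard error 1.25), and −1.35 without DSS-1, where the unadjusted p was 0.0955 by edgeR. *Junb*, a subunit of AP-1, was at 126 ± 16.9 and 92.2 ± 22.5 CPM, and *Rela*, a subunit of NF-κB, at 48.0 ± 4.90 and 38.4 ± 5.26 CPM (SD, n = 5 each). Without DSS-1 both missed the limit at similar fold changes, *Junb* at −0.37 against −0.46 and *Rela* at −0.26 against −0.32, while *Il1a* fell from −3.08 to −0.80. With a quality weight for each library, *Junb* at −0.27 and *Rela* at −0.16 missed the limit as well. In that fit *Il1b* at −1.29, *Il1a* at −0.63 and *Cebpb* at −0.34 also missed it, while *Egr1* at −0.98 and *Etv4* at 1.22 passed. With the mouse number as a block *Rela* missed it at an unchanged −0.32. So did *Il1b* at −1.95, *Il1a* at −1.15, *Cebpb* at −0.78 and *Etv4* at 0.73, while *Junb* at −0.48 and *Egr1* at −0.94 passed.

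For each of the 10 genes, the tested genes with the highest Pearson r of log2 CPM over the 10 mice were listed, as a description with no test, since they were picked from all genes. *Mmp3* was most like *Cdk14* (r = 0.97), *Fgf10* (0.96) and *Mmp19* (0.95). *Mmp10* was most like *Pla2g2e* (0.98), *Ecm1* (0.97) and *Itgb3* (0.97), and *Mmp13* like *Fstl1* (0.97), *Rhoj* (0.95) and *Heg1* (0.95). Without ceAF-1, the mouse farthest from the median, the r values of these 9 were between 0.89 and 0.96.

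*Mmp9* was most like *Capns1* (0.96), *Plaur* (0.96), which encodes the urokinase receptor, and *Clec5a* (0.95). *Mmp2* was most like *Sema3f* (0.96), *Bcl6b* (0.96) and *Lamb1* (0.95), and *Mmp14* like *Thbd*, *Cd93* and *Eng* (0.97 each). *Mmp7* was most like *Mia3* (0.95), *Adam10* (0.92) and *Irak4* (0.91), with r of 0.82 to 0.91 without ceAF-4. *Timp1* was most like *Hp*, *Cxcl3* (0.97 each) and *Il33* (0.96), *Timp2* like *Lcn2* (0.97), *Ddr2* (0.96) and *Fbn1* (0.95), and *Timp3* like *Wfdc18* (0.96), *Trim10* (0.94) and *Cxcl5* (0.93).

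In bulk samples fewer cells of a type and less RNA per cell cannot be told apart, so markers of cell types were read beside these genes. The most abundant marker of a list is that with the highest mean RPKM over the mice, while sums are in CPM. Of 10 neutrophil markers, 7 were tested, and 6 were lower at the same limit (*S100a9*, *Clec4d*, *Retnlg*, *Cxcr2*, *S100a8* and *Csf3r*). These 6 summed to 1589.9, 14.7, 175, 17.9 and 69.6 CPM in the DSS mice and 1.91, 12.9, 13.5, 40.3 and 19.1 CPM in the ceAF mice. DSS-1 was the highest and ceAF-1 the lowest mouse, as in *Mmp3*, *Mmp9*, *Mmp10*, *Mmp13*, *Mmp14*, *Timp1* and *Timp2*. Without DSS-1, 1 of the 7 markers was lower at the limit, *S100a9* at −2.62 against −5.15. The other 5 kept their direction in that fit, at −2.31 to −0.76. DESeq2 gave no p-value for 3 of the 6, *Csf3r*, *Cxcr2* and *Retnlg*. The sum of all 10 markers was 1865, 125, 309.7, 202 and 552 CPM and 21.4, 250.1, 186, 133 and 213 CPM. *Ly6g*, the most abundant, was not among the 6 and had its highest level in DSS-5 (482 CPM, against 229 CPM in DSS-1) and its lowest in ceAF-1 (19.4 CPM), and it made up 68.9% to 94.8% of the whole sum in all mice but DSS-1 (12.3%) and DSS-3 (41.5%).

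Of 10 fibroblast markers, 9 were tested and 2 were lower (*Thy1* and *Pdpn*), with a sum of 181, 130.1, 118, 143 and 112 CPM in the DSS mice and 65.6, 103, 112, 128 and 88.1 CPM in the ceAF mice. *Dpt* was the most abundant, and without DSS-1 1 of the 9 was lower, with *Pdpn* at −0.60 against −1.11. *Thy1*, which mouse T cells also express, was at 24.6, 22.7, 24.8, 23.6 and 12.1 CPM and at 12.4, 12.7, 10.7, 7.76 and 7.42 CPM, with DSS-5 among the ceAF mice as in the summed T-cell markers. The 7 endothelial markers, of which 0 were lower, summed to 127, 73.7, 77.5, 88.8 and 70.5 CPM and to 35.1, 57.2, 70.3, 128 and 58.3 CPM, with *Pecam1* the most abundant. Without ceAF-4, 5 of the 7 were lower at the limit, *Cdh5* at −0.90 against −0.40. In both lists ceAF-1 was the lowest mouse. The highest was ceAF-4 in the endothelial sum and DSS-1 in the fibroblast sum. DSS-1 was also highest in *Mmp3*, *Mmp9*, *Mmp10*, *Mmp13*, *Mmp14*, *Timp1* and *Timp2*. No marker of the 3 lists was at 0 in all mice. The part of these cells in the levels of the metalloproteinases and inhibitors was not tested.

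Of 10 macrophage markers 2 were lower (*Adgre1* and *C1qa*, the latter the most abundant), with sums of 152 to 251 CPM over all mice. With each mouse left out, *Adgre1* lay between −0.72 and −0.49 and passed the limit in 4 of 10 fits, and *C1qa* lay between −0.77 and −0.44 and passed it in 2. All 8 T-cell markers were lower, among them *Cd3g*, *Cd3d*, *Trac*, *Cd3e* and *Cd2*, with *Trac* the most abundant, and without DSS-1 and ceAF-1 5 were. With each mouse left out 7 or 8 were lower, *Cd5* passing the limit in 2 of the 10 fits at fold changes of −1.22 to −0.78 over all 10. The sum of the 8 was 46.7 to 129.9 CPM in the DSS mice and 27.7 to 57.1 CPM in the ceAF mice. The 7 B-cell markers had 0 at the limit and a sum of 220.2 CPM in DSS-1 against 8.62 to 111 CPM elsewhere, *Cd79a* being the most abundant.

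The markers of the labelled tissue were present. Epithelial markers summed to 14319.8 to 21416 CPM, led by *Krt8*, and markers of colon identity to 7388 to 16888 CPM, led by *Car1*, with 0 at the limit in either list. Without ceAF-1, 2 of the 8 markers of colon identity were higher at the limit, and without ceAF-4, 1 was lower, *Muc2* (−0.47). Of 12 Paneth cell and small intestine markers 2 were tested and 0 were at the limit, 6 of the defensins had 0 counts in every mouse, and the sum was at most 49.5 CPM, led by *Fabp6*. Smooth muscle markers (1421 to 3336 CPM, led by *Actg2*), those of enteric neurons and glia (25.3 to 85.1 CPM, *Ret*), of mesothelium and fat (7.32 to 32.3 CPM, *Cidec*) and of squamous epithelium (14.9 to 58.9 CPM, *Sprr1a*) also had 0 at the limit. Without ceAF-1, 2 of the 8 markers of enteric neurons and glia were lower. Markers of position along the colon summed to 164 to 543 CPM, and 1 of 11 tested was higher at the limit, *Hoxd13*, at 109 and 121 CPM in ceAF-3 and ceAF-2 and at most 10.5 CPM in all other mice. Its log2 fold change of 2.91 passed the limit in 4 of the 10 fits that left out 1 mouse, and lay between 2.25 and 3.23 in them all. Over these fits 0 to 3 markers of position were higher, the 3 without ceAF-4, where *Hoxd10* and *Hoxd11* passed as well. The most abundant of them, *Hoxb13*, was at 6.18 CPM in ceAF-1 and 10.2 CPM in ceAF-4 and at 76.3 to 215 CPM in the other mice. These mice are also those with the lowest and highest *Mmp2*. Of the 10 metalloproteinases and inhibitors, ceAF-1 was the lowest mouse in 9 and ceAF-4 the highest in 2. The part of position in these differences was not tested.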

How the data were processed

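Poly(A) RNA of colon was sequenced in 10 mice. The authors deposited 1 table of genes with whole, unnormalized counts of reads per gene and mouse and the FPKM made from the same counts, the exonic length of each gene and the total of the library. The submitters' processing notes name cutadapt 1.9.1 and HISAT2 2.2.1, while the counting program, the genome build and the strand setting are not given in the sources used here. Positions are printed as deposited.

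Counts were fitted with edgeR 4.0.16 in R 4.3.3 over all genes kept by filterByExpr (minimum count 10), with TMM scaling, the two-sided quasi-likelihood test and Benjamini-Hochberg adjustment. Values are TMM CPM, on the log2 scale with a prior count of 1, and TMM RPKM is the CPM per kilobase of exonic length. Exact permutation tests were two-sided on mean log2 CPM over the 252 assignments of 5 of 10 mice. The test was tried on simulated data. Alternatives used limma 3.58.1 and DESeq2 1.42.0, and figures matplotlib 3.10.9. Within-group pairs of libraries differed by far more than sampling noise (chi-square of at least 14.6 per gene over 20 pairs). Promoter sequences came from RefSeq.

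The members and lists were chosen with earlier results of these data known. Genes named by rule were the 10 members and the genes of each list at an unadjusted p-value under 0.05 (at most 6). A list with none, and each marker list, gave its most abundant gene per kilobase. The *Mmp* genes within 2 Mb of *Mmp3*, the 3 genes most like each member and genes that overlap a member were also named. Outside these rules, *Cd5*, *Muc2*, *Cdh5*, *Hoxd10* and *Hoxd11* were named for their values in fits that left out a mouse. *Mmp11* and *Mmp25* were named where a mouse stood apart from its group. *Etv4* and the values of *Hoxb13* were added after the data were seen, as were the fits without both DSS-1 and ceAF-1 and the alternatives for the lists.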

Additional observations from a re-analysis of the deposited data

Results flagged for a closer look

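A mouse was taken to stand apart from the other 4 of its group where its distance to the closest of them exceeded a share of 0.71 of the distance from lowest to highest (Dixon's 95% limit), with levels on the log2 scale. This held in 14 of 98 comparisons, where chance gives about 1 in 20, or 4.9, and genes that vary together are not independent. DSS-1 gave 5 of the 14 and ceAF-1 another 5.

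DSS-1 was the highest DSS mouse, far from the others, in *Mmp9* (gap over range 0.789), *Mmp12* (0.712), *Mmp25* (0.728), *Cebpb* (0.740) and the summed B-cell markers (0.872). ceAF-1 was the lowest ceAF mouse in *Mmp3* (0.736), *Mmp12* (0.756), *Mmp19* (0.810), *Adam19* (0.866) and the summed neutrophil markers (0.744), of which *Ly6g*, not among the neutrophil markers lower at the unadjusted limit, made up 90.7% in that mouse and 68.9% to 94.8% in the other ceAF mice. *Mmp3* had 0 counts in ceAF-1, so its log2 level there, and with it the 0.736, depends on the prior count of 1. DSS-5 was the lowest DSS mouse in *Mmp11* (0.719), the summed T-cell markers (0.827) and the summed markers of mesothelium and fat (0.736). ceAF-4 was the lowest ceAF mouse in the summed Paneth cell and small intestine markers (0.764).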

How the results depend on the processing

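Of 189 fold changes of the 10 genes with a p-value under the alternatives, 160 kept their direction and their side of an unadjusted p-value of 0.05, 11 came under it and 18 changed sign; the causes were not tested. DESeq2 gave no p-value for *Mmp9* (−2.14), *Adam8* (−2.27), *Il1b* (−3.80), *Mmp25* (−1.21), or the neutrophil markers *Csf3r*, *Cxcr2* and *Retnlg*. Adjusted calls among the 10 genes, or 9 in DESeq2, were 0 under each of these alternatives, and genes whose groups do not overlap were 0 with upper quartile scaling and without each mouse. Over all genes DESeq2 called 26 and the fits without 1 mouse 0 to 3. Of all genes, 6.93% had an unadjusted p-value under 0.05, against 6.72% with upper quartile scaling, 7.69% with DESeq2, 14.8% with quality weights, 5.33% with no filter, 7.16% with at least 10 counts in every library of a group, 6.10% and 5.98% with the FPKM fits, 4.19% with the replicate block, 8.76% without DSS-1 and ceAF-1, and 4.26% to 11.2% without 1 mouse. Counts below are to be read against these shares. At this limit, DESeq2 gave 1 of 9 (*Timp1* −1.45), no filter beyond 1 count gave 2 (*Mmp9* −2.09, *Timp1* −1.41), and the fits without 1 mouse 0 to 3. Sample quality weights turned *Mmp3* to 0.20, *Mmp7* to −0.20, *Mmp10* to 0.57, *Mmp13* to 0.04 and *Timp3* to 0.06. *Mmp7* was −0.06 with log2(FPKM + 0.1). Without DSS-1 and ceAF-1, chosen after the data were seen, *Mmp2* was 0.23, *Mmp9* 0.17, *Mmp10* 0.65, *Mmp13* 0.01 and *Mmp14* 0.00. With each mouse left out, log2 fold changes spanned −0.41 to 0.18 in *Mmp2*, −2.30 to −0.80 in *Mmp3*, −0.26 to 1.00 in *Mmp7*, −2.89 to −0.08 in *Mmp9*, −0.97 to 0.36 in *Mmp10*, −1.92 to −0.27 in *Mmp13*, −0.49 to −0.16 in *Mmp14*, −1.77 to −0.43 in *Timp1*, −0.48 to −0.12 in *Timp2* and −0.47 to −0.13 in *Timp3*. Same-numbered mice of the groups were treated as not paired, since the labels name no pairing. The r of their deviations was −0.25 to 0.29, over 0.1 in 1 of 5, and 1 of 5 best matched its own number. Weak r values cannot exclude a shared batch. With the number as a replicate block 0 genes were called, 694 were under an unadjusted 0.05 and *Mmp7* was −0.01. The list counts were rerun after the data were seen. Other family genes at the limit numbered 2 with quality weights, 3 with no filter and 0 with the block, where *Mmp12* was −1.48. They numbered 2 without DSS-1 and ceAF-1 and 1 to 3 without 1 mouse. Activation and control gave 4 with no filter, 3 with quality weights, 1 with either FPKM fit, 0 with the block, 0 without both mice and 1 to 3 without 1. ADAM and ADAMTS genes gave 1 with DESeq2 (where *Adam8* had no p-value), either FPKM fit, the block or without both mice, and 1 to 4 without 1. Matrix genes gave 1 with upper quartile scaling, where *Tnc* missed the limit at −0.81. They also gave 1 with at least 10 counts in every library of a group, where *Spp1* was not tested. They gave 3 with DESeq2 or no filter, 0 with quality weights, either FPKM fit, the block or without both mice, and 0 to 4 without 1. Inducers and factors gave 9 with no filter, 8 with at least 10 counts in every library of a group and 6 with DESeq2 (where *Il1b* had no p-value). They gave 4 with quality weights, 3 and 4 with the FPKM fits, 2 with the block, 3 without both mice and 2 to 8 without 1. Depth limits *Mmp3*, *Mmp7*, *Mmp9*, *Mmp10* and *Timp1* most, each with a mouse of 11 counts or fewer.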
